A study of Mus musculus with 19 samples.

Results

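The suppressors of cytokine signalling (SOCS family) were followed across 8 groups of RNA libraries from mouse T helper 2 (Th2) cells. The family was taken as 8 genes, Cish and Socs1 to Socs7, found by gene symbol among 22878 symbols in the deposited tables. It was chosen with earlier results of these data known. Each table listed 1 transcript for every member except Socs2, which had 4. For Socs2 the transcript with the most reads over the 16 RNA libraries (NM_007706) was used.

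Many cytokines act through receptors that carry JAK kinases, which phosphorylate STAT transcription factors, and the activated STAT factors switch on target genes that include SOCS genes. SOCS proteins bind phosphorylated receptors or JAK kinases through an SH2 domain and recruit a ubiquitin ligase through a SOCS box, which ends the signal. In Th2 cells the pathway carries the signals of interleukin 4 (IL-4), through STAT6, and of interleukin 2 (IL-2), through STAT5.

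RNA was sequenced in 2 experiments, in which Bcl11b, a zinc-finger transcription factor needed for T cell commitment, or Gata3, the factor that directs Th2 differentiation, had been deleted. Each experiment had 4 groups of 2 libraries, namely early knockout (KO), early wild type (WT), late KO and late WT. In the Bcl11b experiment all groups came from naive CD4 T cells of Bcl11bfl/fl-CreERT2 mice, whose Bcl11b gene is flanked by loxP sites and whose Cre acts once 4-hydroxytamoxifen (4-OHT) is given. Early KO cells had 4 days of Th2 culture with 4-OHT, and early WT cells had the same 4 days without it. Late KO and late WT cells had 4 days of Th2 culture, rested for 1 day with IL-2 and then had Th2 culture for 4 days more, and KO cells had 4-OHT in that last period only. WT cells here are thus floxed cells without the drug, and effects of 4-OHT and of the deletion cannot be told apart. The sources used here do not give the promoter that drives CreERT2, nor the alleles and culture of the Gata3 experiment. Chromatin immunoprecipitation of Bcl11b and GATA3 came from late WT Th2 cells, 1 library per antibody beside 1 input library.

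The promoters of 3 inducible members are shown because peaks of the antibodies fell on or beside their starts and because each held a motif of the factors that cytokines activate. At Socs3 these peaks overlapped an input peak and were left out of the peak counts. Since windows were chosen partly for their motifs, that these 3 hold matches was fixed by the choice. They were taken from RefSeq (GRCm38.p6), each with 250 bases before and 30 bases from the transcription start on, 5′ to 3′ on the gene's strand. Capitals mark matches to TTCNNNGAA, the motif of most STAT factors, or to GAAANNGAAA, a motif of interferon-responsive promoters. The Cish window is chr9:107296409-107296688 (plus strand), the Socs1 window chr16:10785507-10785786 (minus strand) and the Socs3 window chr11:117969337-117969616 (minus strand).
Cish: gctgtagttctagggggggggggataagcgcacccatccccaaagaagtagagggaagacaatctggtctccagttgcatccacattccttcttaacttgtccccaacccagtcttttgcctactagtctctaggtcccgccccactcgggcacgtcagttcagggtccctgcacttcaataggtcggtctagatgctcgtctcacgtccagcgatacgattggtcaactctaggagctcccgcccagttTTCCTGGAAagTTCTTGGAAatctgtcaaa
Socs1: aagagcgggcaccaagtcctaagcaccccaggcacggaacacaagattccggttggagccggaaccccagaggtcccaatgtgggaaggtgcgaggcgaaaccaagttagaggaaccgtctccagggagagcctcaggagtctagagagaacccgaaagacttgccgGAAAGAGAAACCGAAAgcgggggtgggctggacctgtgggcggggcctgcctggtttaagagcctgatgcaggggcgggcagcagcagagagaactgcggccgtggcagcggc
Socs3: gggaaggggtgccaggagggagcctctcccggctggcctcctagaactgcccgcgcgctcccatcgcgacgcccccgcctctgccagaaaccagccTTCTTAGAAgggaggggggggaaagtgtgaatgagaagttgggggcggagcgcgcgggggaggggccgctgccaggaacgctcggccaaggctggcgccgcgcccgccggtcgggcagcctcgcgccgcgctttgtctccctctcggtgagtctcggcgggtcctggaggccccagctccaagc

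The Cish window held 2 matches to TTCNNNGAA in tandem, at bases 0 to 8 and 11 to 19 counted from the transcription start as 0. The Socs3 window held it once, at bases -154 to -146. The Socs1 window held 2 overlapping matches to GAAANNGAAA, at bases -83 to -74 and -77 to -68. Promoter entries were found for 4 of the 8 members, the fourth being Socs4, whose window held none of the motifs searched. TTCNNNNGAA, the wider spacing that STAT6 prefers, and AGATAA and TGATAA, motifs of GATA factors, were not among the letters of these 4 windows. Motifs were searched on both strands. Of 32851 RefSeq promoter windows of the same length, 7.83% held TTCNNNGAA, 3.28% GAAANNGAAA, 6.50% TTCNNNNGAA, 10.7% AGATAA and 8.69% TGATAA. A match is a run of letters and not a measured binding site.

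Reads in genes ranged from 4687552 to 14577958 per RNA library. Both early Bcl11b WT libraries differed from the other 14 in kind. Their gene reads were 20.7% and 16.9% of the total that the deposited RPKM imply, and odorant and vomeronasal receptor transcripts, which T cells do not use, had 3.73 and 4.82 reads per kb, against at most 0.502 in any other library. In the Gata3 experiment, early and late WT libraries with the same replicate number lay closer to each other than replicates of 1 group did. The chi-square of read counts had a median over genes of 1.20 between late and early WT replicates numbered 1 and of 0.884 between those numbered 2, against 2.17 between the early WT replicates and 2.09 between the late WT replicates. Counting alone gives 0.455. The labels do not say whether these libraries share cells, nor whether replicates are separate cultures or animals. All p-values below therefore measure no more than the spread between these samples.

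T helper markers (Cd3e, Cd3g, Cd4, Thy1 and Cd28) had reads in all 8 groups, with sums between 2318 and 8627 CPM, and so did the Th2 markers, with sums between 475 and 6946 CPM. Targeted transcripts were still read in KO libraries. Bcl11b fell to 66.5 and 54.2 CPM (counts scaled to library size) in early Bcl11b KO libraries, against 126 and 128 CPM in early WT (log2 fold change -1.08 ± 0.28 SE, adjusted p = 0.0232). It was at 75.6 and 137 CPM in late Bcl11b KO libraries, against 139.7 and 181 CPM in late WT, and was not called (adjusted p = 0.421). Gata3 fell to 425 and 419 CPM in early Gata3 KO libraries, against 1178 and 1279.5 CPM in early WT (-1.54 ± 0.11, adjusted p = 5.8e-06). In late Gata3 KO libraries it was at 1090.4 and 954 CPM, against 1382 and 1327 CPM in late WT (-0.41 ± 0.11, adjusted p = 0.0361). The deleted exons are not known here, and reads outside them check nothing.

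Levels below are RPKM, that is, reads scaled to transcript length and, by TMM, to library size, and groups are given as mean ± SD over 2 libraries. Changes are log2 fold changes ± SE from edgeR's quasi-likelihood test, p-values were adjusted after Benjamini and Hochberg over all genes of an experiment, and genes under 0.05 are the called ones. All 8 members passed the filter on low values in both experiments. Cish, Socs1, Socs2 and Socs3 made up 87.4% to 98.4% of the family's summed RPKM in each of the 16 libraries. Cish was the highest member in all 8 libraries of the Bcl11b experiment, and Socs1 was the highest in all 8 libraries of the Gata3 experiment. Socs4 to Socs7 stayed at or under 35.1 RPKM in every library, and the first 4 members at or above 27.0 RPKM.

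**Figure D1:**
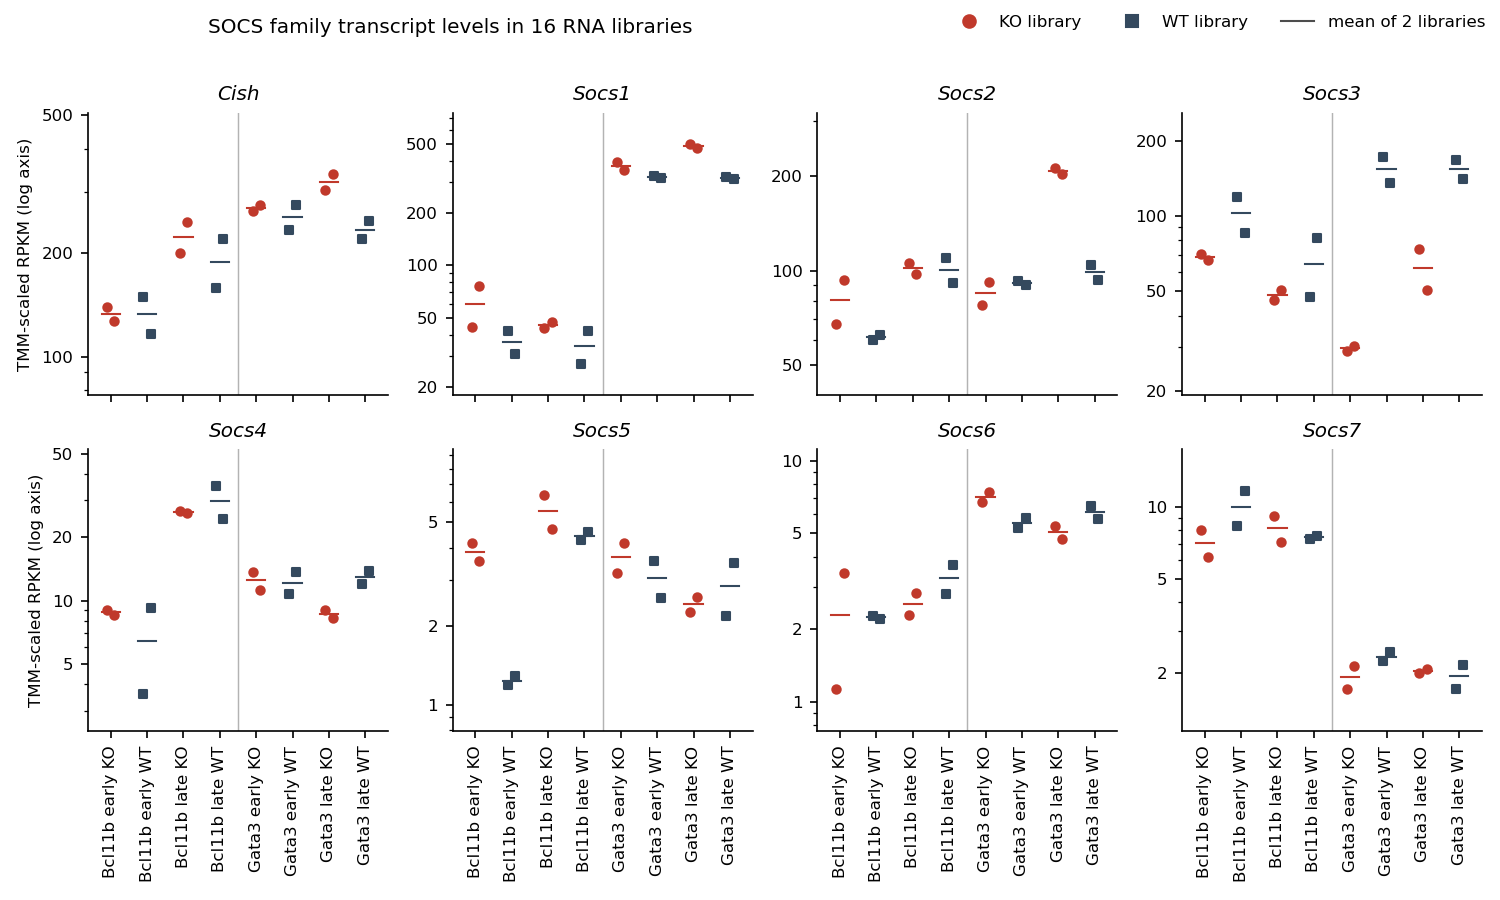
TMM-scaled RPKM of the 8 SOCS family genes on log axes, 1 panel per gene and 1 point per library; short lines are means of 2 libraries, circles KO, squares WT, and the grey line separates the Bcl11b experiment (left) from the Gata3 experiment (right). Socs3 is lowest in early Gata3 KO libraries (29.0 and 30.2 RPKM), Socs2 highest in late Gata3 KO libraries (212 and 203 RPKM), and Socs1 lies at or above 312 RPKM in every library of the Gata3 experiment.

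CIS, the product of Cish, binds the activated IL-2 receptor and is a classical target of STAT5. Its highest group was late Gata3 KO at 321 ± 24.6 RPKM (SD, n = 2), above early Gata3 KO at 269 ± 6.98 RPKM with no overlap. From there, neighbours in the order overlapped down to late Bcl11b WT at 188 ± 43.3 RPKM. Early Bcl11b KO at 133 ± 8.96 RPKM and early Bcl11b WT at 133 ± 23.2 RPKM were lowest and overlapped each other.

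SOCS1, which inhibits JAK kinases directly and restrains interferon and IL-4 signals, had its highest group in late Gata3 KO at 488 ± 18.8 RPKM. Early Gata3 KO at 374 ± 29.6 RPKM lay between that group and the Gata3 experiment's WT groups, without overlap on either side. Early WT at 324 ± 5.46 RPKM and late WT at 317 ± 7.25 RPKM overlapped. All 4 groups of the Bcl11b experiment were far lower, between 34.4 ± 10.5 RPKM in late WT and 60.0 ± 22.1 RPKM in early KO.

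WT cells of the Gata3 experiment had 8.91 times the Socs1 RPKM of WT cells of the Bcl11b experiment in early cultures and 9.20 times in late cultures. By deposited RPKM, whose totals differ most in the early Bcl11b WT libraries, these ratios were 27.5 and 10.6. Socs7 ran the other way, with 0.235 times the level in the Gata3 experiment early and 0.261 times late, or 0.740 and 0.30 times by deposited RPKM. In late cultures Socs4 (0.435 times) and Socs5 (0.640 times) were lower in the Gata3 experiment as well, while in early cultures they were 1.90 and 2.47 times as high. By deposited RPKM these ratios were 0.497 and 0.736 late, and 6.14 and 7.68 early. The early Socs5 ratio rests on 25 and 27 reads in the early Bcl11b WT libraries. There the read rate of odorant and vomeronasal receptor transcripts gives 16.4 and 21.2 reads. No test was made of these ratios, because mouse line, culture and sequencing cannot be told apart between experiments.

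SOCS2, also induced through STAT5 and known for limiting growth hormone signals, was highest in late Gata3 KO at 208 ± 6.05 RPKM, with no overlap with any other group. Late Bcl11b KO at 102 ± 5.89 RPKM, late Bcl11b WT at 101 ± 13.1 RPKM and late Gata3 WT at 98.9 ± 7.82 RPKM overlapped in turn. The early groups followed, and early Bcl11b WT was lowest at 61.4 ± 1.49 RPKM.

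SOCS3, an inhibitor of JAK kinases that docks on the gp130 receptor of the IL-6 family, had a different order. Late Gata3 WT at 154 ± 19.5 RPKM and early Gata3 WT at 154 ± 25.7 RPKM were highest and overlapped. Early Bcl11b WT came next at 102 ± 24.2 RPKM. A run of overlapping groups between 68.5 ± 2.34 RPKM in early Bcl11b KO and 48.4 ± 3.18 RPKM in late Bcl11b KO held late Gata3 KO as well. Early Gata3 KO stood below every other group at 29.6 ± 0.870 RPKM.

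The other members are less studied in T cells. Socs4 was highest in late Bcl11b WT at 29.8 ± 7.46 RPKM and late Bcl11b KO at 26.4 ± 0.352 RPKM, which overlapped, and no other library passed 13.9 RPKM. Socs5, whose product has been reported in mouse to bind the IL-4 receptor, ranged from 1.19 to 6.34 RPKM over all libraries. Socs6 ranged from 1.14 to 7.45 RPKM. Socs7 ranged from 6.16 to 11.7 RPKM in the Bcl11b experiment and from 1.71 to 2.45 RPKM in the Gata3 experiment.

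In early Gata3-deleted cultures 1 member, Socs3, fell, to 0.193 times its WT level. Socs3 was at 29.0 and 30.2 RPKM in early Gata3 KO libraries, against 172 and 135 RPKM in early WT. Both KO libraries lay far below both WT libraries. The log2 fold change was -2.38 ± 0.19 (adjusted p = 1.24e-05), and Socs3 passed the threshold under all 16 alternatives tried, with log2 fold changes between -2.54 and -2.19. Of the 8 members, 1 was called against 30.7% of all 10601 genes tested.

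Cish was at 264 and 274 RPKM in early Gata3 KO libraries, against 233 and 274 RPKM in WT, and the groups overlapped (0.09 ± 0.12, adjusted p = 0.645). Socs1 was at 395 and 353 RPKM in early KO, against 328 and 320.0 RPKM in WT. The Socs1 groups did not overlap, but the gene was not called by edgeR (0.21 ± 0.11, adjusted p = 0.174). It was called by limma on deposited RPKM (0.28, adjusted p = 0.0477). Socs2 was at 77.5 and 91.8 RPKM in early KO, against 93.0 and 90.3 RPKM in WT (-0.11 ± 0.12, adjusted p = 0.511), and these groups overlapped. Socs4 to Socs7 had log2 fold changes between -0.28 and 0.35, and none was called. Of these, Socs6 was at 6.75 and 7.45 RPKM in KO against 5.28 and 5.81 RPKM in WT (adjusted p = 0.135), and Socs7 at 1.71 and 2.15 RPKM in KO against 2.24 and 2.45 RPKM in WT (adjusted p = 0.32), both without overlap. The median log2 fold change of the 8 members was 0.06, and that of all genes was 0.00.

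In late Gata3-deleted cultures Socs2, Socs1 and Cish rose and Socs3 fell. Socs2 was at 212 and 203 RPKM in late Gata3 KO libraries, against 104 and 93.4 RPKM in late WT. Both KO libraries lay far above both WT libraries (2.10-fold, log2 fold change 1.07 ± 0.12, adjusted p = 0.000345). Socs1 was at 501 and 474 RPKM in late KO, against 322 and 312 RPKM in WT, with no overlap (0.62 ± 0.11, adjusted p = 0.00383). Cish was at 304 and 339 RPKM in late KO, against 219.5 and 247 RPKM in WT, also without overlap (0.46 ± 0.12, adjusted p = 0.0320). Socs3 was at 73.6 and 50.5 RPKM in late KO, against 168 and 140.4 RPKM in WT. Its 2 KO libraries lay below both WT libraries (-1.32 ± 0.19, adjusted p = 0.00143).

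These 4 called members of 8 stand beside 14% of all 10601 genes. With the replicate number as a block 2510 genes were called in place of 1488. Socs4 was at 9.0 and 8.28 RPKM in late KO, against 12.0 and 13.9 RPKM in WT, and was not called by edgeR (-0.59 ± 0.18, adjusted p = 0.0608). It was called with that block (adjusted p = 0.0259), without the filter on low values (0.0199) and without early WT replicate 1 (0.0481). Socs5, Socs6 and Socs7 had log2 fold changes between -0.28 and 0.08 and were not called. The calls of Socs2 and Socs3 were kept under all 16 alternatives. Socs1 lost its call in a fit of all 16 libraries (adjusted p = 0.163).

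The Cish call was lost under 8 of 16 alternatives, with adjusted p up to 0.205. These were limma on deposited RPKM (0.0771), a fit of only the 4 libraries compared (0.0736), the fit of all 16 libraries (0.191), and fits without early KO replicate 1 (0.0602) or 2 (0.0592), late WT replicate 1 (0.205) or 2 (0.0739), or late KO replicate 2 (0.112). The WT libraries of this experiment lie close together, so the late and early comparisons share nearly the same controls.

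**Figure D2:**
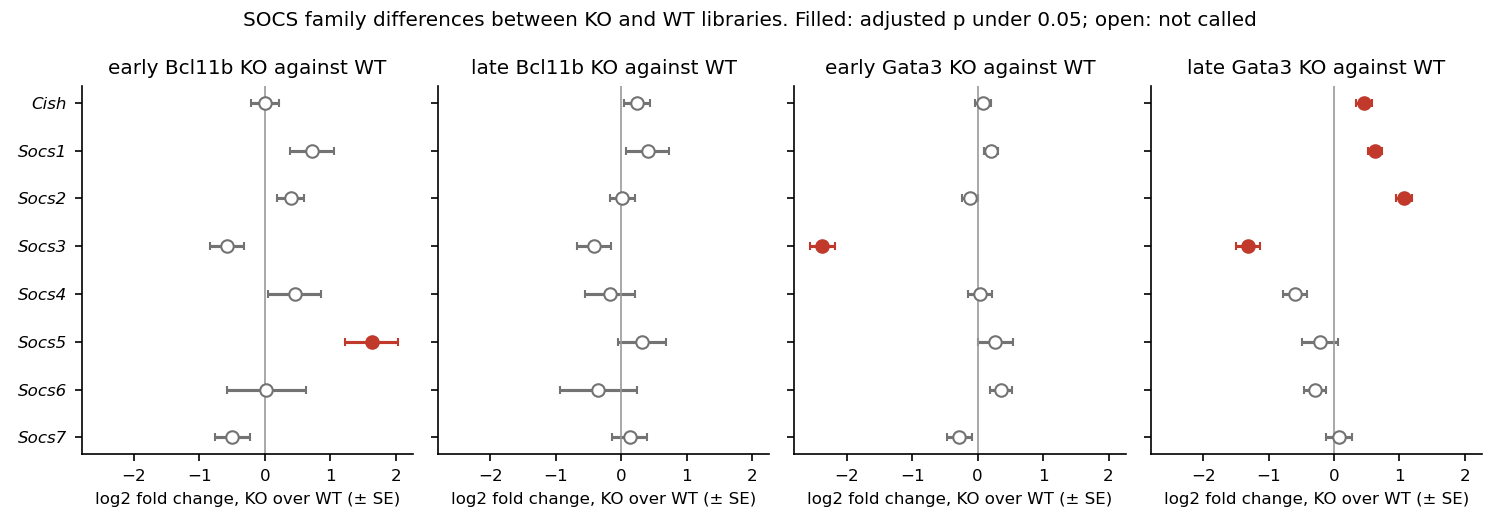
Log2 fold changes of the 8 members, KO over WT, in 4 comparisons; points are edgeR estimates, bars ± SE, and filled points have an adjusted p under 0.05. Socs3 is called to the left of 0 in both Gata3 panels, while Cish, Socs1 and Socs2 are called to the right of 0 in late Gata3 KO.

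Markers of cell types moved with the Gata3 deletion too. The 6 Th2 markers, Gata3 among them, summed to 475 to 476 CPM in early Gata3 KO libraries, against 2985 to 3163 CPM in WT, and all 6 fell. In late cultures they summed to 1314 to 1441 CPM in KO, against 3278 to 3279 CPM in WT, and 4 fell and 1 rose. The 2 NK cell markers reached 41.2 to 45.7 CPM in early KO, against at most 0.136 CPM in WT, with Ncr1 at 0 reads in both groups, and at most 0.391 CPM in late KO. The 2 CD8 T cell markers reached 31.0 to 39.0 CPM in early KO, against 8.39 to 11.5 CPM in WT, and 19.9 to 24.7 CPM in late KO, against 11 to 12.0 CPM in WT. The 6 macrophage and dendritic cell markers were at 3.43 to 3.90 CPM in early KO, against 16 to 34.3 CPM in WT, and at 7.10 to 8.81 CPM in late KO, against 20.8 to 37.4 CPM in WT. Csf1r was at 0 reads in both early groups and Lyz2 in both late groups. The 4 B cell markers summed to at most 2.03 CPM in any Gata3 group, and Ms4a1 was at 0 reads in all 4. The 5 mast cell and basophil markers were at 4.98 to 6.75 CPM in early KO, against 0.376 to 0.678 CPM in WT, and at no more than 0.203 CPM in late KO, against 0.429 to 1.57 CPM in WT, with Mcpt4 and Ms4a2 at 0 reads in all 4 groups. Of the 5 T helper markers in the tables, 1 rose and 1 fell in early KO and 2 rose in late KO. The part of other cell types in the SOCS changes was not tested, and in bulk libraries fewer cells of a type and less RNA per cell cannot be told apart.

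The Gata3 effect on 2 members differed between stages. For Socs2 the late KO effect exceeded the early one by 1.18 ± 0.17 on the log2 scale (adjusted p = 0.0017), and its early KO and WT libraries overlapped where its late ones did not. For Socs3 the late effect was 1.06 ± 0.26 higher, that is, the late fall was smaller (adjusted p = 0.0282). The 2 called members stand beside 12.2% of all genes tested for this difference. Cish (0.38 ± 0.17, adjusted p = 0.198) and Socs1 (0.42 ± 0.15, adjusted p = 0.104) were not called by edgeR without a block. With the replicate number as a block both were called (Cish 0.37, adjusted p = 0.0443, and Socs1 0.42, adjusted p = 0.0271), and 2387 genes were called in place of 1294.

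Late and early Gata3 KO libraries, tested directly in an alternative added after the data were seen, differed by 1.29 for Socs2 (adjusted p = 5.29e-05), 1.06 for Socs3 (adjusted p = 0.00304) and 0.38 for Socs1 (adjusted p = 0.0249). These 3 called members stand beside 2600 of 10601 genes called by the same edgeR test. Cish (0.25, adjusted p = 0.166), Socs4 (-0.54, 0.0586), Socs5 (-0.59, 0.151), Socs6 (-0.50, 0.0549) and Socs7 (0.08, 0.801) were not called. The stage difference of Socs2 held under all 16 alternatives. The direct test of late against early KO is counted among these, although it leaves the controls out and so tests no difference of KO effects. That of Socs3 was lost under 7 of 16, namely limma on deposited RPKM (adjusted p = 0.0508), the fit of all 16 libraries (0.11), and fits without early WT replicate 1 (0.0914), early KO replicate 1 (0.103) or 2 (0.0998), late WT replicate 2 (0.0894) or late KO replicate 1 (0.0753).

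In early Bcl11b-deleted cultures 1 member, Socs5, rose, and its reads in the WT libraries were near those of genes that T cells do not use. Socs5 was at 4.15 and 3.54 RPKM in early Bcl11b KO libraries, from 175 and 141 reads, against 1.19 and 1.29 RPKM in early WT, from 25 and 27 reads. At the rate of reads over sensory receptor transcripts, a transcript of its length would hold 16.4 and 21.2 reads in the 2 WT libraries, and 2.21 in KO replicate 1. The log2 fold change was 1.63 ± 0.40 (adjusted p = 0.0171), and 3.27 after that rate was subtracted from the counts. It passed the threshold under 14 of 16 alternatives, but not when the 4 libraries compared were fitted alone (adjusted p = 0.196), nor without late KO replicate 1 (adjusted p = 0.0506). A RefSeq gene model, Gm30510, overlaps the start of Socs5, and since strand use in counting is not given, reads of the pair may be shared.

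Of the 8 members 1 was called, beside 21.1% of all 10873 genes tested. Socs3 was at 70.2 and 66.9 RPKM in early Bcl11b KO, against 119 and 85.2 RPKM in WT. Its groups did not overlap, but it was not called (-0.58 ± 0.26, adjusted p = 0.139). Socs1 was at 44.4 and 75.6 RPKM in early KO, against 41.9 and 30.8 RPKM in WT, and was not called (0.72 ± 0.33, adjusted p = 0.149). Socs2 was at 67.6 and 93.6 RPKM in early KO, against 60.3 and 62.4 RPKM in WT (0.39 ± 0.20, adjusted p = 0.193). For both genes the KO libraries lay above the WT libraries. Cish was at 139 and 126 RPKM in early KO, against 149 and 116 RPKM in WT, and the groups overlapped (0.00 ± 0.21, adjusted p = 0.996).

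Socs4, Socs6 and Socs7 were not called in early Bcl11b KO either (adjusted p between 0.223 and 0.987). Every value of this comparison rests on the 2 early WT libraries that stand apart, and no early comparison can be made without them. In limma on the deposited RPKM, whose median over all genes was 0.86, Cish, Socs1, Socs2, Socs4 and Socs5 were called higher in KO. By that test 6889 of all 10873 genes were called. Socs1 was also called in the fit of all 16 libraries (adjusted p = 0.0253), and Socs4 without early WT replicate 2 (1.25, adjusted p = 0.0388). Markers of cell types differed as well. T helper markers summed to 4150 to 4714 CPM in KO, against 3280 to 3503 CPM in WT, and Th2 markers to 1290 to 1420.5 CPM in KO, against 977 to 994 CPM in WT, and 2 of each list rose. Markers of mast cells and basophils summed to 42.9 to 45.3 CPM in KO, against 3.56 to 15.9 CPM in WT, with Mcpt8 at 0 reads in both groups. Of this list, Mcpt4 and Ms4a2 went the other way, with reads in WT and 0 reads in KO. Macrophage and dendritic cell markers summed to 27.8 to 40.4 CPM in KO, against 61.2 to 81.5 CPM in WT, and CD8 T cell markers to 83.2 to 99.3 CPM in KO, against 42.3 to 42.9 CPM in WT. B cell markers were at 95.0 to 131 CPM in KO, against 84.7 to 102 CPM in WT, and NK cell markers at no more than 0.104 CPM in KO and 5.45 CPM in WT. Their part in the SOCS values was not tested.

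In late Bcl11b-deleted cultures no member was called by edgeR, none had an unadjusted p under 0.05, and none was called by DESeq2 or by limma on deposited RPKM. All genes tested gave 2.22% called. Socs3 was at 46.2 and 50.7 RPKM in late Bcl11b KO, against 47.5 and 81.6 RPKM in late WT, and the groups overlapped (-0.41 ± 0.26, adjusted p = 0.614). Socs1 was at 43.8 and 47.5 RPKM in late KO, against 27.0 and 41.9 RPKM in WT (0.41 ± 0.33, adjusted p = 0.757). Its groups did not overlap. Cish was at 200.0 and 245 RPKM in late KO, against 158 and 219 RPKM in WT (0.24 ± 0.21, adjusted p = 0.783), with overlap. Socs2 was at 106 and 97.7 RPKM in late KO, against 109.8 and 91.3 RPKM in WT (0.02 ± 0.20, adjusted p = 0.999), also with overlap. Socs4 to Socs7 had log2 fold changes between -0.35 and 0.32.

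Macrophage and dendritic cell markers summed to 37.8 to 43.2 CPM in late Bcl11b KO, against 7.42 to 8.44 CPM in WT, and B cell markers to 19.0 to 29.1 CPM in KO, against 4.11 to 5.04 CPM in WT. Of these lists 1 and 2 markers rose. Th2 markers summed to 6615 to 6946 CPM in KO, against 4863 to 5398 CPM in WT, and 0 of the 6 were called by edgeR. T helper markers summed to 7667 to 8627 CPM in KO, against 5671 to 5978 CPM in WT, and 2 of 5 rose. Mast cell and basophil markers were at 1.90 to 3.64 CPM in KO, against 0.144 to 0.490 CPM in WT, with Mcpt4 and Ms4a2 at 0 reads in both groups. CD8 T cell markers were at 14.2 to 16.6 CPM in KO, against 10.4 to 19.96 CPM in WT, and NK cell markers at no more than 0.316 CPM in KO and 0.216 CPM in WT. Their part in the SOCS values was not tested. Replicates varied more in the Bcl11b experiment, with a biological coefficient of variation of 0.281, than in the Gata3 experiment, with 0.125. Simulations of the early Bcl11b comparison (10873 genes) recovered 26% of 2-fold and 73% of 4-fold changes, and those of the early Gata3 comparison (10601 genes) 77% and 100%. The late comparisons were not simulated.

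For no member did edgeR or DESeq2 call a difference between the late and the early Bcl11b effect, beside 3.24% of all genes called by edgeR. In limma on deposited RPKM, whose median over all genes was -1.04, 6 members were called, beside 6054 of all 10873 genes. In edgeR Socs5 came nearest, at -1.31 ± 0.54 with an unadjusted p of 0.0350 and an adjusted p of 0.217.

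Between late and early WT cultures of the Bcl11b experiment Socs4, Socs5 and Socs2 rose. Socs4 was at 35.1 and 24.5 RPKM in late WT libraries, against 3.6 and 9.24 RPKM in early WT. All late values were above all early ones (2.21 ± 0.41, adjusted p = 0.00186). Socs5 was at 4.27 and 4.60 RPKM in late WT, against 1.19 and 1.29 RPKM in early WT (1.84 ± 0.40, adjusted p = 0.00443). Socs2 was at 109.8 and 91.3 RPKM in late WT, against 60.3 and 62.4 RPKM in early WT (0.71 ± 0.20, adjusted p = 0.0164). The Socs2 call was lost without early WT replicate 1 (adjusted p = 0.0559) or late WT replicate 1 (adjusted p = 0.151).

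Cish (0.51 ± 0.21, adjusted p = 0.0730) and Socs3 (-0.66 ± 0.26, adjusted p = 0.0611) were not called by edgeR between late and early WT, but both calls turned on the setting. Cish was called higher in late WT without the filter on low values (adjusted p = 0.0179), in the fit of all 16 libraries (0.00739), without early WT replicate 1 (0.0482) and in limma on deposited RPKM (6.68e-05). Socs3 was called lower in late WT by DESeq2 (-0.69, adjusted p = 0.0217), with background reads subtracted (-0.76, 0.038), and without early WT replicate 2 (-0.90, 0.0269) or late WT replicate 2 (-1.12, 0.0132), and higher in limma on deposited RPKM (0.74, 0.0364). In limma the median over all genes was 1.04, above the value of Socs3, and all 8 members and 7773 of 10873 genes were called. Without the filter on low values the median over all genes was -1.31. The 3 edgeR calls of 8 members stand beside 41.7% of all genes, and the comparison uses the same early WT libraries that stand apart.

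Socs4 and Socs5 were called under all 16 alternatives, but their sizes moved. Socs4 was at 3.04 without early WT replicate 2 and at 2.92 in limma on deposited RPKM. Socs5 was at 3.51 with background reads subtracted, and Socs2 at 2.08 in limma. Markers of cell types differed between the stages as well. Th2 markers summed to 4863 to 5398 CPM in late WT, against 977 to 994 CPM in early WT, and T helper markers to 5671 to 5978 CPM in late WT, against 3280 to 3503 CPM in early WT. B cell markers were at 4.11 to 5.04 CPM in late WT, against 84.7 to 102 CPM in early WT, and macrophage and dendritic cell markers at 7.42 to 8.44 CPM in late WT, against 61.2 to 81.5 CPM in early WT. CD8 T cell markers were at 10.4 to 19.96 CPM in late WT, against 42.3 to 42.9 CPM in early WT, and those of mast cells and basophils at 0.144 to 0.490 CPM in late WT, against 3.56 to 15.9 CPM in early WT. Their part in the SOCS values was not tested.

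In the Gata3 experiment no member and 0% of 10601 genes were called between late and early WT by edgeR, DESeq2 or limma. These are the libraries that lie closer to each other than replicates do, and 128 genes and no member had an unadjusted p under 0.05 in edgeR.

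Other genes of the JAK-STAT pathway were followed as 6 lists of ligands, receptors, JAK kinases and STAT factors, other inhibitors, partners of the SOCS box ligase, and STAT target genes. Their counts are read against the share of all genes called by edgeR in the same comparison. In early Gata3 KO that share was 30.7%, with 1481 genes higher and 1776 lower of 10601. There 10 of 12 tested ligand genes fell and 2 rose, with a median log2 fold change of -3.81 against 0.00 for all genes. Il13 (-6.93 ± 0.23, adjusted p = 1.83e-07) and Il4 (-6.33 ± 0.32, adjusted p = 7.5e-07), cytokines that define Th2 cells, had the smallest p-values. Among 24 receptor genes 10 rose and 7 fell. Il12rb2, a chain of the IL-12 receptor of Th1 cells, rose by 5.14 ± 0.29 (adjusted p = 1.09e-06), and Il2ra, the high-affinity IL-2 receptor chain, fell (-2.20 ± 0.11, adjusted p = 5.77e-07).

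Of 11 JAK and STAT genes 4 rose, led by Stat4 (3.70 ± 0.28, adjusted p = 6.7e-06), and 2 fell. Of 16 other inhibitors 6 rose, led by Cblb, an E3 ubiquitin ligase (2.41 ± 0.13, adjusted p = 9.5e-07), and Usp18, an inhibitor of interferon receptors (5.96 ± 0.35, adjusted p = 1.48e-06), and 2 fell. Of 9 tested partners of the SOCS box ligase Ube2d1, a ubiquitin-conjugating enzyme, rose (1.84 ± 0.17, adjusted p = 2.47e-05) and 4 fell, with Ube2f, which loads NEDD8 onto cullins, in front (-0.89 ± 0.12, adjusted p = 0.000309). Of 23 STAT target genes 8 rose and 11 fell, with Il2ra and Icos (-2.04 ± 0.15, adjusted p = 5.29e-06) in front. The 11 that fell include Gata3, the deleted gene, whose fall was fixed by the design. Il2ra and Il4ra are counted among the receptor genes as well.

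In late Gata3 KO, where 14% of all genes were called, 895 higher and 593 lower, 2 ligand genes rose and 5 fell of 12. Il13 (-5.11 ± 0.20, adjusted p = 2.04e-06) and Il5 (-7.29 ± 0.44, adjusted p = 1.37e-05) led the falls. Of 24 receptor genes 5 rose and 5 fell, of 11 JAK and STAT genes 4 rose and none fell by edgeR, and of 16 other inhibitors 5 rose and 1 fell. Of 9 ligase partners 1 rose and 1 fell, and of 23 STAT target genes 8 rose and 5 fell. The 5 STAT targets that fell again include the deleted gene Gata3. The list medians lay between -0.81 for ligands and 0.25 for receptors, against 0.00 for all genes.

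In early Bcl11b KO, where 21.1% of all genes were called, 8 of 15 ligand genes rose and none fell, with a median of 1.86 against 0.03 for all genes. Il13 rose by 4.48 ± 0.29 (adjusted p = 2.12e-05). Of 25 receptor genes 4 rose and 2 fell, of the JAK and STAT genes 3 rose and 2 fell, of the other inhibitors 4 rose and 1 fell, and of 23 STAT target genes 5 rose and 1 fell. Stat5b, which carries IL-2 signals, fell (-1.46 ± 0.21, adjusted p = 0.00144). Bcl2l1, a survival gene among the STAT targets, rose by 2.74 ± 0.23 (adjusted p = 9.65e-05). No ligase partner was called by edgeR. The receptor and STAT target counts, 6 of 25 and 6 of 23, are near the share of all genes. In late Bcl11b KO, with 2.22% of all genes called, the calls were 1 ligand (Il9, 2.24 ± 0.47, adjusted p = 0.0363), 4 receptor genes (Osmr, the oncostatin M receptor, at 4.65 ± 0.79, adjusted p = 0.0151, among them) and 1 STAT target (Pim2, 1.42 ± 0.18, adjusted p = 0.00394), all higher in KO. No gene of the other 3 lists was called by edgeR. Between late and early WT of the Gata3 experiment no gene of the 6 lists was called by edgeR, beside 0% of all genes.

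In the Bcl11b experiment 8 of 15 ligand genes rose and none fell between late and early WT, beside 41.7% of all genes called by edgeR. Of 25 receptor genes 6 rose and 7 fell, of 11 JAK and STAT genes 1 rose and 5 fell, and of 16 other inhibitors 2 rose and 3 fell. Of 9 ligase partners 1 rose and 2 fell, and of 23 STAT target genes 8 rose and 8 fell. The median log2 fold change was 1.91 for ligands and between -0.37 and -0.10 for the other 5 lists, against -0.01 for all genes.

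**Figure D3:**
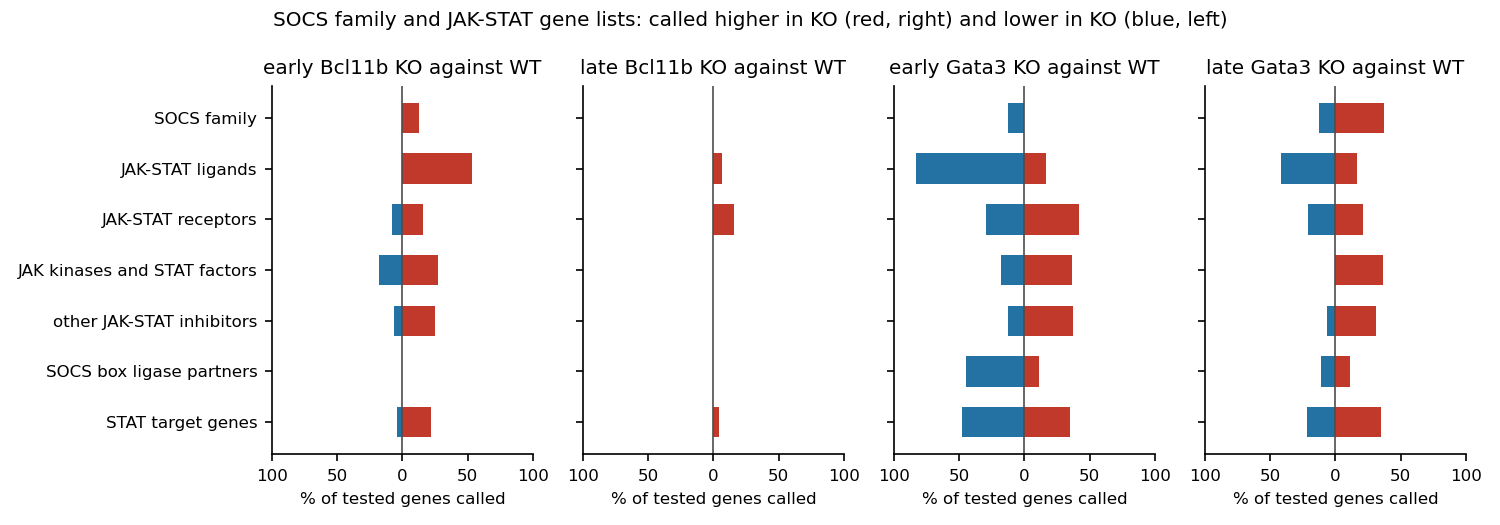
Share of tested genes of the SOCS family and of 6 JAK-STAT lists called higher (right of 0) or lower (left of 0) in KO than in WT, in percent, by edgeR at an adjusted p under 0.05. In early Gata3 KO 10 of 12 ligand genes are called lower, and in late Gata3 KO 3 of 8 SOCS genes are called higher and 1 lower.

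The genes most like each of the 4 abundant members were found by Pearson's r of log2(CPM + 1) over the 16 RNA libraries, which are 8 pairs of replicates from 2 experiments. For Cish they were Rps3 (0.944), Rab8a (0.938) and Rps14 (0.932), with 0.925, 0.922 and 0.908 over the 14 libraries without early Bcl11b WT. For Socs1 they included Clic1 (0.988) and Ndufab1 (0.986), with 0.988 and 0.987 over 14 libraries. For Socs2 they were P2rx7 (0.918), Zfp263 (0.902) and Mir5129 (0.872), and 0.887, 0.866 and 0.899 over 14 libraries. For Socs3 they were Ripk3 (0.920), Rftn1 (0.917) and the agouti gene a (0.908), and 0.927, 0.926 and 0.905 over 14 libraries. These values describe the libraries and carry no p. They take in the differences between the 2 experiments, which the 14 libraries still span and which were large for Socs1. No r was taken within an experiment.

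Chromatin peaks assigned by the authors to the nearest start were counted after leaving out peaks that overlapped an input peak. Each antibody had 1 library, so no difference between antibodies was tested, and scores and fold enrichments are the authors' values. Bcl11b peaks numbered 20 over the family, at 5 of 8 members, and GATA3 peaks 34, at 7 of 8 members. Of 11488 genes tested in either experiment, 49.1% had an assigned Bcl11b peak and 52.7% a GATA3 peak. Socs1 held most of them, with 13 Bcl11b and 19 GATA3 peaks. As many or more were assigned to 28 genes for Bcl11b and to 71 genes for GATA3, Socs1 included in both, and genes with any peak had a median of 1 and 2.

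The Socs1 peaks spread from its start to 119.8 kb downstream, and 8 of the Bcl11b and 11 of the GATA3 summits lay within the next gene, Clec16a. A Bcl11b peak covered the Socs1 start (chr16:10781597-10787353, mm10, 4.13-fold), the window printed above. The strongest GATA3 peak of the family by fold (chr16:10701286-10703089, 9.02-fold) had its summit 83.0 kb from the Socs1 start inside Clec16a, where a Bcl11b peak of 3.30-fold overlapped it. Of the Socs1 peaks, 11 Bcl11b and 14 GATA3 peaks overlapped a peak of the other antibody. The share of all peaks that do so was not computed. Since assignment goes by distance alone, these peaks are near Socs1 and are not shown to act on it.

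A GATA3 peak covered the Cish start (chr9:107295335-107297988, 7.66-fold), with its summit 798 bases before the start. It holds the Cish window with the tandem STAT motif, and it was the one GATA3 peak of the family over a start. A Bcl11b peak of 6639 bases also covered the Cish start (chr9:107295300-107301938, 4.64-fold), but it overlapped an input peak and was left out of the counts. Beside it Cish had 3 Bcl11b and 5 GATA3 peaks.

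Socs3, which fell in both Gata3 KO comparisons, had no peak over its start outside the input. The Bcl11b peak there (chr11:117967826-117970747, 2.68-fold) and a GATA3 peak just upstream of the printed window (chr11:117969665-117970408, 3.26-fold) both overlapped an input peak. Its 2 remaining Bcl11b peaks lay 3.6 and 9.18 kb downstream, at most 2.16-fold enriched. Its 1 remaining GATA3 peak was 32.8 kb downstream with 2.29-fold enrichment. Socs2, called higher in late Gata3 KO, had 3 GATA3 peaks of at most 2.26-fold between 10.5 and 24.3 kb downstream and a Bcl11b peak over its start (3.11-fold).

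Socs5 had a Bcl11b peak over its start (2.06-fold) and 2 GATA3 peaks, Socs6 had 3 GATA3 peaks of up to 7.13-fold, the nearest 2.96 kb from the start, and Socs7 had 1 GATA3 peak 42.3 kb away. Socs4 had 1 Bcl11b peak, over its start, which overlapped an input peak. In all, 13 Bcl11b and 16 GATA3 peaks of the family overlapped a peak of the other antibody, and none reached a 10-fold enrichment. Without the share of all peaks that overlap, these counts do not set the family apart.

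**Figure D4:**
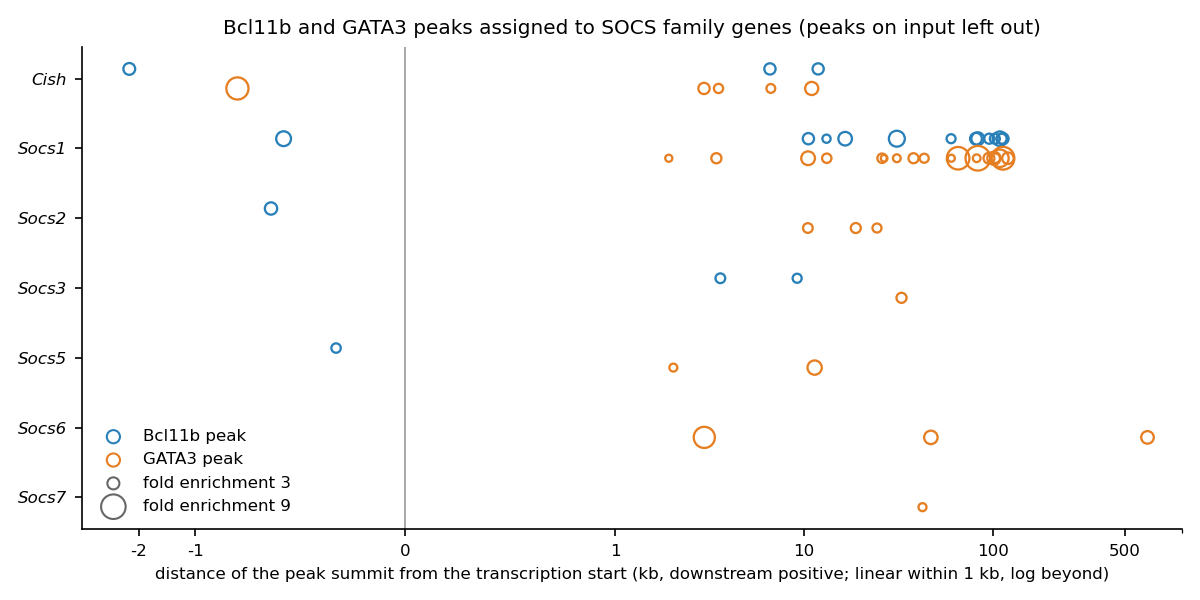
Summits of Bcl11b (upper row of each gene) and GATA3 (lower row) peaks assigned to 7 SOCS genes, by distance from the transcription start in kb, downstream positive, on an axis that is linear within 1 kb of the start and logarithmic beyond; circle size shows the authors' fold enrichment. Socs1 carries 13 Bcl11b and 19 GATA3 peaks, mostly beyond 10 kb downstream, and the one GATA3 peak over a start, 7.66-fold enriched, is that of Cish. Of 11488 genes tested, 15.9% had a GATA3 peak within 1 kb of their start.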

How the data were processed

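Per the labels, 10 ng of RNeasy-purified RNA was amplified (Ovation V2) for HiSeq sequencing. Build mm10 and the tools MACS 1.4.2, Novoalign, Bowtie, TopHat2 2.0.13 and CASAVA 2.18 are listed without roles in the submitters' processing notes. Deposited counts are the authors' raw reads per RefSeq transcript, and deposited RPKM are the authors' reads per kb scaled to a library total. Each of the authors' deposited peaks has a score (from log10 p), a fold enrichment over background and, in antibody lists, a percent FDR, per the file headers. Strand use and the peak-calling control were not stated.

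Genes that reached a deposited RPKM of 1 in 2 or more of 8 libraries were tested per experiment with edgeR 4.0.16 (R 4.3.3; TMM, quasi-likelihood F test, Benjamini-Hochberg, threshold 0.05) on the counts, in 1 fit of 4 groups without a replicate block, which was tested on simulated data. The labels do not say that replicate numbers pair libraries. Deviations from group means correlated between same-numbered libraries at 0.140 to 0.551 in every pair of Gata3 groups, so values with the number as a block stand beside Gata3 results whose call they change. DESeq2 1.42.0, limma 3.58.1 on log2(RPKM + 1), and other filters, samples and transcripts were alternatives. Python 3.11.15, numpy 2.4.6, pandas 2.3.3 and matplotlib 3.10.9 made tables and figures. Peaks overlapping an input peak by 1 base were left out.

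The text names all 8 members, both targeted genes, up to 2 called genes with the smallest p-values per list, and the 3 genes most like each abundant member, except 1 that is not reported here. Marker lists covered T helper, Th2, CD8 T, B, NK, mast and macrophage cells. Members, lists and tests were chosen with earlier results of these data known.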

Additional observations from a re-analysis of the deposited data

Results flagged for a closer look

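The effect of the Gata3 deletion on 2 members differed between culture stages by a test of the difference itself (edgeR's quasi-likelihood test, interaction of stage and genotype). For Socs2 the late effect exceeded the early one by 1.18 on the log2 scale (1.184 before rounding, adjusted p = 0.0017). For Socs3 the late effect exceeded the early one by 1.06 (1.057 before rounding, adjusted p = 0.0282), so that the late fall was smaller. The targeted transcript Gata3 had a log2 fold change of -0.41 in late and -1.54 in early KO, and late and early WT libraries of that experiment lay closer to each other than replicates did. The part of either in these differences was not tested.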

How the results depend on the processing

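Of 1016 member values under the alternatives, 910 kept their direction and their side of the threshold, 20 kept the direction and lost a call, 27 gained one and 59 changed sign, 5 of them as called values. The direct test of late against early Gata3 KO is counted among the alternatives. Where a value below changed, the cause was not tested.

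Members called with limma on deposited RPKM were 5 in early Bcl11b KO, 2 in early Gata3 KO, 8 between late and early Bcl11b WT, 6 for the Bcl11b stage difference and 1 for the Gata3 one. Of 10601 genes, limma gave 4276 an unadjusted p under 0.05 in early Gata3 KO, with 3 members among them. For the Gata3 stage difference it did so for 2956 genes, with 5 members among them. Genes called with it, of 10873 tested, were 6889 in early Bcl11b KO, 7773 between late and early Bcl11b WT and 6054 for the Bcl11b stage difference. It turned Socs1 (1.25, adjusted p = 0.00504), Socs3 (0.74, adjusted p = 0.0364) and Socs7 (0.76, adjusted p = 0.016) to called rises between late and early Bcl11b WT, and Cish (-1.06, adjusted p = 0.0235) and Socs3 (-1.09, adjusted p = 0.0388) to called values below 0 for the Bcl11b stage difference, where Socs7 was at -0.51 uncalled. Its median over all genes was 0.86, 1.04 and -1.04 in these 3 comparisons. Uncalled values with changed sign under limma were Socs3 (0.56) and Socs7 (0.46) in early Bcl11b KO, and Socs2 (-0.16) and Socs7 (-0.0504) in late Bcl11b KO.

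DESeq2 called 587 genes in late Bcl11b KO and 902 for the Bcl11b stage difference. Without a filter on low values 3596 genes were called in early and 146 in late Bcl11b KO, 2269 in late Gata3 KO, 7114 between late and early Bcl11b WT, and 529 and 2076 for the Bcl11b and Gata3 stage differences. Fitting the 4 libraries compared alone gave 0 members and 1016 genes in early Bcl11b KO and 1582 genes in late Bcl11b KO. Subtracting background reads gave 152 genes in late Bcl11b KO and 1 member, Socs5, for the Bcl11b stage difference. For that difference edgeR without the subtraction called 3.24% of all 10873 genes. A fit of all 16 libraries gave 2 members and 4126 genes in early Bcl11b KO, 716 genes in late Bcl11b KO, 2032 genes in early Gata3 KO, 2 members and 686 genes in late Gata3 KO, 1536 genes for the Bcl11b stage difference, and 1 member and 613 genes for the Gata3 one. Testing late against early Gata3 KO directly, chosen after seeing the data, gave 3 members and 2600 of 10601 genes.

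With the replicate number as a block, 2510 genes were called in late Gata3 KO, where Socs4 joined (-0.60, adjusted p = 0.0259). The block gave 206 genes for the Bcl11b stage difference, and 4 members (Cish, Socs1, Socs2 and Socs3) and 2387 genes for the Gata3 one. It changed the call of no other member. In the Bcl11b experiment correlations of deviations between same-numbered libraries ran from -0.066 to 0.283, so the numbers are not shown to pair those libraries.

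Uncalled members near 0 changed sign as follows. In early Bcl11b KO, Cish was at -0.0243 with DESeq2, -0.0343 with 4 libraries, -0.0001 with the block and -0.1196 with background subtracted, and Socs6 was at -0.0055, -0.0147 and -0.1139 with the first 3 of these. In late Bcl11b KO, Socs2 was at -0.0002 without a filter and -0.0113 with all 16 libraries. Socs1 between late and early Bcl11b WT was at 0.1923 without a filter and 0.0348 with all 16 libraries. For the Bcl11b stage difference without a filter, Cish was at -0.0183 and Socs3 at -0.0923. Socs3 between late and early Gata3 WT was at -0.0031 with the longest transcript.

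Leaving out each library in turn gave 0 to 2 members and 1564 to 2526 genes in early Bcl11b KO, 20 to 477 genes in late Bcl11b KO, 2099 to 3446 genes in early Gata3 KO, 3 to 5 members and 818 to 1481 genes in late Gata3 KO, and 2 to 4 members and 2477 to 5095 genes between late and early Bcl11b WT. The stage differences had 40 to 721 genes for Bcl11b and 1 to 2 members and 694 to 1431 genes for Gata3. A lone library left in a group is assumed to vary like the others. Ranges that crossed 0 were, in early Bcl11b KO, Cish -0.205 to 0.1936, Socs4 -0.0706 to 1.2505 and Socs6 -1.0286 to 0.5522, and in late Bcl11b KO, Socs2 -0.1045 to 0.1818, Socs3 -0.7297 to 0.0331, Socs4 -0.4063 to 0.13 and Socs7 -0.0692 to 0.3005. In early Gata3 KO they were Cish -0.0206 to 0.2073, Socs2 -0.2269 to 0.0025 and Socs4 -0.1211 to 0.2187, and in late Gata3 KO, Socs5 -0.5207 to 0.1584 and Socs7 -0.0923 to 0.2554. Between late and early WT they were Socs1 -0.439 to 0.1732 in the Bcl11b experiment, and Socs3 -0.1561 to 0.1918, Socs4 -0.0724 to 0.2685 and Socs5 -0.4767 to 0.186 in the Gata3 experiment. For the Bcl11b stage difference they were Socs1 -0.5791 to 0.1781, Socs3 -0.1027 to 0.6601 and Socs6 -0.8883 to 0.6926.

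With an FDR of at most 1% and a fold of at least 10, 0 member peaks were left for either antibody, and 0 were shared. Requiring an overlap of 0.5 of both peaks left 10 shared GATA3 peaks of 16. Limits of depth bear on Socs5 and Socs6, with the fewest reads.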
